A study of Mus musculus with 18 samples.

Results

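The monoamine and acetylcholine enzymes are the 9 genes Th, Ddc, Dbh, Tph2, Maoa, Maob, Chat, Ache and Hdc, which make or break down dopamine, noradrenaline, serotonin, histamine and acetylcholine. They were taken as every probe set annotated to exactly 1 of these symbols, which gave 14 probe sets, of 45037 in all (18193 genes with a probe set of their own). The 18 arrays measured RNA from mouse brains (C57BL/6J X DBA/2J), given as 11 and 14 weeks old without saying which sample had which age. All the samples are titled transgenic: a bacterial artificial chromosome placed a flag-tagged rat poly(A)-binding protein, followed by eGFP, in the position of the orexin coding sequence. The 9 IP arrays held RNA that came down with the tagged protein on anti-flag beads from formaldehyde-fixed brain, and the 9 WB arrays held total RNA of whole brain. No immunoprecipitate from mice without the transgene is among the 18 arrays, and the labels do not say that each sample came from its own animal, so p-values cover only sample-to-sample spread, part of which may be technical.

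Catecholamines are made in a chain. Th, tyrosine hydroxylase, is the rate-limiting step towards L-DOPA, Ddc turns L-DOPA into dopamine, and Dbh turns dopamine into noradrenaline inside vesicles. Tph2 starts serotonin synthesis in neurons of the raphe nuclei, and Ddc completes it. Hdc makes histamine in the tuberomammillary nucleus of the posterior hypothalamus, a wake-promoting target of orexin fibres, and in mast cells. Maoa and Maob are flavoenzymes of the outer mitochondrial membrane that oxidise monoamines. Chat makes acetylcholine and Ache hydrolyses it. Except for the oxidases and Ache, these enzymes mark small groups of transmitter neurons, and orexin neurons are known as a glutamatergic and peptidergic population that sends fibres to those groups.

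Each array's deposited intensities had the same trimmed mean of 500, and the median was lower on the IP arrays (153.3 to 202.9) than on the WB arrays (220.5 to 266.7). The bacterial hybridization controls, added before hybridization, averaged 14.30 to 15.06 (log2) on IP replicates 2, 5, 6 and 8, 13.47 to 13.74 on the other 5 IP arrays and 12.81 to 13.30 on WB arrays. Differences below are IP minus WB on log2(intensity + 16), which understates the change of dim probe sets. With the deposited scaling 14.2% of all probe sets were higher and 30.8% lower in IP at an adjusted p below 0.05 (limma with Benjamini-Hochberg adjustment over all probe sets). Higher probe sets made up 31.6% of these calls, 52.3% after quantile normalization, 60.6% once medians were centred (median centring) and 4.72% once arrays were scaled on the hybridization controls (control scaling). The median difference over all probe sets was -0.23 as deposited, 0.11 and 0.20 with the first pair of these alternatives, and -1.05 with the last, so a change of a single gene is relative to that shift. Control probe sets for a bacterial trp transcript gave means of 5.92 to 6.31 in IP and 5.70 to 5.92 in WB (log2), which serves as a mark of dim signal.

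Of the 14 probe sets, 1 was higher in IP, 6 were lower and 7 did not pass the test, against the 14.2% higher and 30.8% lower over all probe sets. Their median difference was -0.37, against -0.23 over all probe sets. Counted by the brightest probe set of each gene, 1 of the 9 genes was higher (Maob), 3 were lower (Th, Dbh and Ache) and 5 did not pass. Over all genes counted this way 21.7% were higher and 21.7% were lower. Of the 14 probe sets, 3 were higher and 2 lower after quantile normalization, against 24.1% and 22% of all probe sets. The split was 3 and 2 after median centring (28.4% and 18.5% of all), and 1 and 10 after control scaling (3.15% and 63.6% of all). The calls of Maob as higher, and of Th and 1 of 3 Dbh probe sets as lower, were made under each of these scalings. The spread between arrays was larger in IP than in WB for 10 of the 14 probe sets (median SD 0.74 against 0.42), and over all probe sets the median SD was 0.74 and 0.34.

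**Figure D1:**
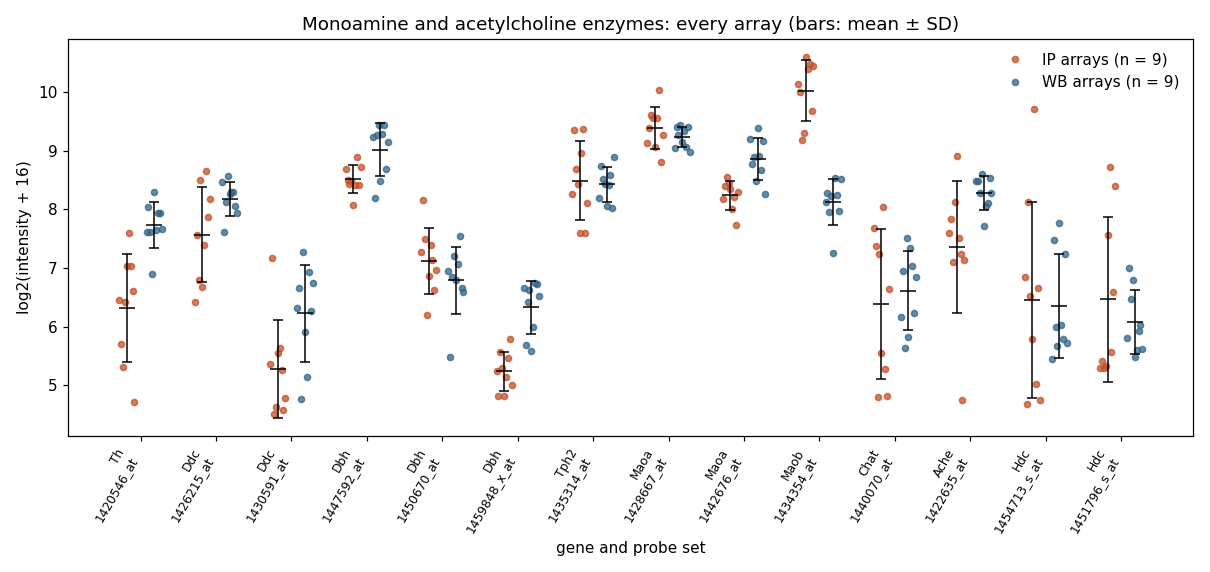
Log2(intensity + 16) of the 14 probe sets on each of the 9 IP arrays (orange) and 9 WB arrays (blue), with the mean and SD of each group in black. The Maob points of the 2 groups do not overlap, the Th points overlap at the lower WB values, and the Hdc, Chat and Ache points spread widely among IP arrays.

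Th was lower in IP. Its intensity was lowest at 10.3, median 71.1 and highest at 176.8 on the IP arrays, and 102.5, 186.0 and 299.7 on the WB arrays (probe set 1420546_at). All 9 IP arrays were below the WB mean and 6 were below every WB array, and the groups overlapped only through WB replicate 4, which lay at 102.5 while the next WB array was at 179.3. The mean fell from 7.74 ± 0.40 to 6.32 ± 0.92 (log2, SD, n = 9 each), a difference of -1.42 (SE 0.34, 95% confidence interval -2.12 to -0.72, limma adjusted p = 0.00132), or 2.68-fold lower. Between an immunoprecipitate and total RNA, fewer cells of a type, less RNA per cell and less RNA caught on beads cannot be told apart. The difference stayed negative and past the threshold in all 28 alternatives that kept the probe set, from -2.22 with control scaling to -0.94 with quantile normalization. The IP mean was at the level of the brightest trp control (6.31), and the difference was -1.72 with a pseudocount of 1 and -0.98 with one of 64. The Th promoter is shown because it carries the cAMP response element by which this gene is known to be induced. Of the 9 genes, 8 had a promoter in the RefSeq table (GRCm38.p6), and the letters TGACGTCA, searched on both strands in the 250 bases before the start, were found in that of Th alone among them, against 1.55% of the 32851 promoters in the table. The window lies at chr7:142900022-142900051 on the minus strand, and capitals mark the element, which begins 45 bases before the start.
Th: cagaggggcttTGACGTCAgcctggccttt

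Ddc, the decarboxylase that follows Th, had 2 probe sets with negative differences, and only the dimmer one passed. The brighter, 1426215_at, ran from 69.7 through a median of 172.6 to 388.3 in IP and from 178.9 through 289.7 to 363.6 in WB. IP replicate 7 was above every WB array and 5 IP arrays were below all of them, so the IP group reached past WB at both ends. Its difference was -0.62 (SE 0.29, 95% confidence interval -1.22 to -0.02, limma adjusted p = 0.0883). It passed without IP replicate 4 (-0.73, adjusted p = 0.0433) or IP replicate 7 (-0.75, adjusted p = 0.0322) and with control scaling (-1.498, adjusted p = 0.000473). The dimmer probe set, 1430591_at, had intensities of 6.7, 22.3 and 128.2 (lowest, median, highest) in IP and 11.2, 64.1 and 138.2 in WB. It fell by 0.95 (SE 0.37, limma adjusted p = 0.0371), with an IP mean of 5.27 that was below the trp controls. That call was lost with quantile normalization (-0.53) and median centring (-0.53), and when IP replicate 3, 4, 8 or 9 or WB replicate 1, 2, 4, 7, 8 or 9 was left out (adjusted p from 0.0515 to 0.0763). The mean over both probe sets was -0.78 (limma adjusted p = 0.0125).

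Dbh, which makes noradrenaline in neurons such as those of the locus coeruleus, had 3 probe sets, of which 2 were lower in IP and 1 did not pass. The brightest, 1447592_at, ran from 254.3 through 342.5 to 459.4 in IP and from 278.3 through 588.8 to 676.7 in WB. The 9 IP arrays were all below the WB mean, and only 1 was below every WB array, because WB replicates 2, 5 and 8 lay at 278.3, 343.2 and 394.3 while the other 6 WB arrays were at 552.2 or more. The same 3 arrays had the lowest median intensities of the WB group (220.5 to 230.5, against 245.8 to 266.7), and the part of this in the result was not tested. The difference was -0.50 (SE 0.19, limma adjusted p = 0.0366), and IP was the tighter group here (SD 0.23, against 0.45 in WB). The call was lost after quantile normalization (-0.19) or median centring (-0.08), without the 4 IP arrays of high hybridization control signal (-0.38), and when IP replicate 3 or 5 or WB replicate 1, 3, 4, 6, 7 or 9 was left out (adjusted p from 0.0508 to 0.0762). Probe set 1459848_x_at, of a class that can match several genes, had 8 of the 9 IP arrays below every WB array. Its intensities were 12.2, 21.8 and 39.4 (lowest, median, highest) in IP and 31.7, 76.3 and 90.6 in WB, a difference of -1.09 (SE 0.24, limma adjusted p = 0.000582), and it passed in all 27 alternatives that kept it. With a mean of 5.24 it was below the trp controls in IP. The third probe set, 1450670_at, had intensities of 57.3, 124.4 and 270.3 (lowest, median, highest) in IP and 28.5, 98.6 and 170.5 in WB, and 7 IP arrays were above the WB mean. Its difference of 0.33 (SE 0.30, 95% confidence interval -0.29 to 0.95, limma adjusted p = 0.391) passed as higher after quantile normalization (0.85, adjusted p = 0.0177) and after median centring (0.76, adjusted p = 0.0347), and turned to -0.51 with control scaling. As the mean over its 3 probe sets Dbh did not pass (-0.42, limma adjusted p = 0.0910).

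Tph2, the tryptophan hydroxylase of serotonin neurons, did not pass in either direction. Its intensities were 176.7, 329.8 and 649.1 (lowest, median, highest) in IP and 243.0, 328.7 and 459.3 in WB (1435314_at). IP replicates 2, 6 and 7, at 640.9, 484.3 and 649.1, were above every WB array, and IP replicates 5 and 8 were below all of them, so the IP group spread to both sides of a narrow WB group. The means were 8.49 ± 0.67 in IP and 8.43 ± 0.30 in WB (log2, SD, n = 9 each), with a difference of 0.06 (SE 0.25, 95% confidence interval -0.45 to 0.57, limma adjusted p = 0.867). The sign of so small a difference changed without IP replicate 2 (-0.05) or IP replicate 7 (-0.05), and with control scaling it was -0.86 (adjusted p = 0.0143). The Tph2 promoter is shown beside that of Th because the start of the other hydroxylase gene has a different element: the letters TATAAA, searched on both strands, begin 30 bases before the start. This motif was in 12.37% of the 32851 promoters, and among the members with a promoter Ddc also had it, on the opposite strand. The window lies at chr10:115185035-115185064 on the minus strand, with the motif in capitals.
Tph2: ctcagtcactcaTATAAAggaacacgggga

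Of the oxidases, only Maob was higher in IP with the deposited scaling. Maob, the form known from astrocytes and from serotonin and histamine neurons, was higher in IP, with intensities of 564.9, 1116.0 and 1534.9 (lowest, median, highest) in IP and 135.8, 284.5 and 355.2 in WB (1434354_at). Every IP array was above every WB array, which held for 5.22% of all probe sets, and no other of the 14 probe sets separated the groups in either direction (10.3% of all probe sets had every IP array below every WB array). The mean rose from 8.12 ± 0.39 to 10.02 ± 0.53 (log2, SD, n = 9 each), a difference of 1.90 (SE 0.22, 95% confidence interval 1.45 to 2.35, limma adjusted p = 1.13e-07), or 3.74-fold. It stayed past the threshold in all 29 alternatives, from 0.97 with control scaling to 2.33 with median centring. Maob was represented by 1 probe set only. Maoa, its neighbour on the X chromosome and the form known from catecholamine neurons, had 2 probe sets that differed from each other. The brighter, 1428667_at, ran from 433.8 through 654.6 to 1029.8 in IP and from 489.5 through 602.2 to 680.1 in WB, with 4 IP arrays above every WB array and 1 below all of them. Its difference was 0.15 (SE 0.16, 95% confidence interval -0.19 to 0.48, limma adjusted p = 0.494). This passed as higher after quantile normalization (0.42, adjusted p = 0.0244) and after median centring (0.57, adjusted p = 0.00436), and as lower with control scaling (-0.79, adjusted p = 0.0107). The other, 1442676_at, had intensities of 196.5, 296.6 and 360.0 (lowest, median, highest) in IP and 289.2, 456.9 and 652.0 in WB, with all 9 IP arrays below the WB mean. It fell by 0.62 (SE 0.19, limma adjusted p = 0.00893), and did not pass with quantile normalization (-0.25, adjusted p = 0.280) or median centring (-0.20, adjusted p = 0.429).

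**Figure D2:**
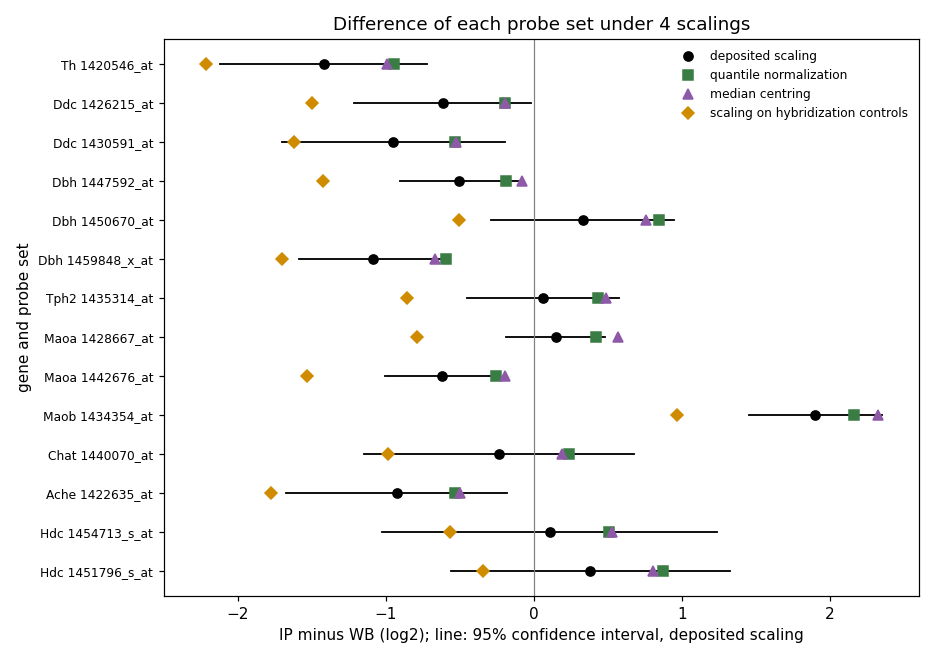
Difference between IP and WB (log2) of each of the 14 probe sets under 4 scalings of the arrays, with the 95% confidence interval of the deposited scaling as a line. Maob lies to the right of 0 and Th to the left of 0 under all 4 scalings, while both Hdc probe sets, Chat, Tph2, the brighter Maoa probe set and 1 Dbh probe set lie on both sides.

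Because the scaling of an array cancels in a ratio taken within it, apart from the pseudocount, the probe sets were also compared as log2 ratios on the same array. These ratios were chosen after the values were seen: all 6 pairs of probe sets of 1 gene, and Maob over each Maoa probe set, 8 in all. Maob alone had already separated the groups, so the p-values of its ratios are not independent support for its rise. Maob over the brighter Maoa probe set was between -0.42 and 1.53 on the IP arrays and between -1.90 and -0.46 on the WB arrays. The ranges did not overlap, with IP replicates 3 and 4 closest to WB, and the mean ratio differed by 1.76 (3.38-fold; exact permutation p = 4.11e-05, the smallest that the 48620 divisions of the arrays can give, adjusted p = 0.000165, 2-sided). Over the other Maoa probe set the ratio was 0.63 to 2.39 in IP and -2.14 to 0.27 in WB, also without overlap (difference 2.52, 5.74-fold; exact permutation p = 4.11e-05, adjusted p = 0.000165). The 2 Maoa probe sets moved unequally against each other, with ratios of 0.71 to 1.82 in IP and -0.24 to 0.95 in WB (difference 0.77, exact permutation adjusted p = 0.000439). The Maob to Maoa difference was in the same direction with either Maoa probe set and was larger than the difference between those probe sets.

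The probe sets of Dbh also moved unequally against each other. The ratios with 1459848_x_at are taken against a probe set whose IP mean (5.24) was below the trp controls. The ratio of 1450670_at over it was 1.89 ± 0.75 in IP and 0.46 ± 0.50 in WB (log2, SD, n = 9 each; difference 1.42, exact permutation adjusted p = 0.000740). That of 1447592_at over 1450670_at was 1.39 ± 0.58 and 2.23 ± 0.33 (difference -0.84, exact permutation adjusted p = 0.00237). That of 1447592_at over 1459848_x_at differed by 0.59 (exact permutation adjusted p = 0.00477), which was lost with a pseudocount of 64 (0.13), quantile normalization (0.41) and control scaling (0.28). The ratios of the Ddc probe sets (difference 0.33, exact permutation adjusted p = 0.591) and of the Hdc probe sets (-0.28, exact permutation adjusted p = 0.715) did not differ beyond their spread.

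**Figure D3:**
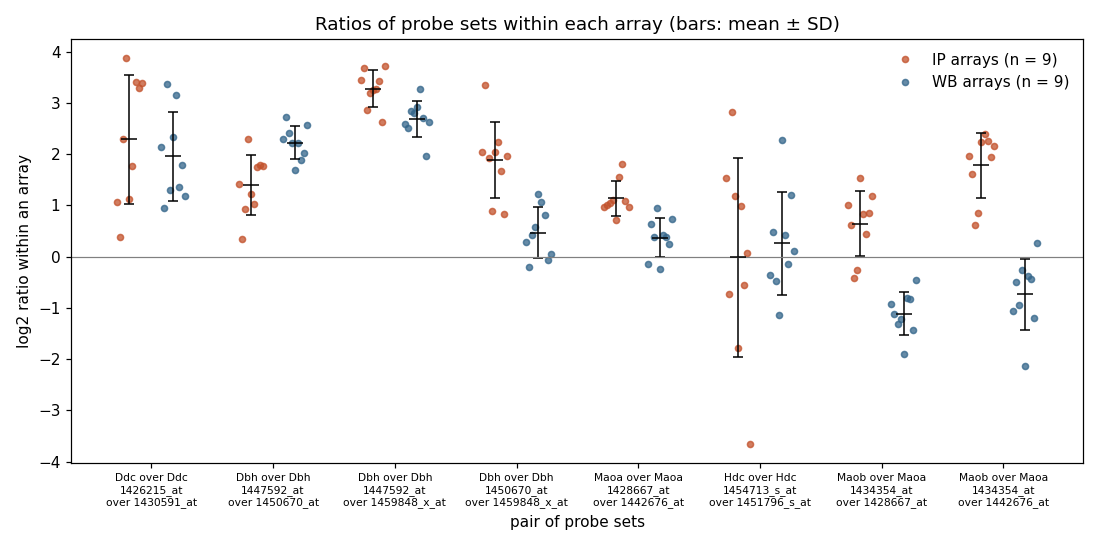
Log2 ratio of the 2 probe sets of each pair within each of the 9 IP arrays (orange) and 9 WB arrays (blue), with group mean and SD in black. Maob over either Maoa probe set is higher on every IP array than on any WB array, and the Hdc ratio has the widest spread, from -3.65 to 2.82 in IP.

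For acetylcholine, the enzyme that makes it did not pass and the one that breaks it down was lower. Chat, the marker of cholinergic neurons of the basal forebrain, striatum and motor nuclei, had intensities of 11.8, 83.2 and 247.6 (lowest, median, highest) in IP and 33.5, 98.8 and 166.7 in WB (1440070_at). On the IP arrays it was either above 80 (replicates 1, 2, 4, 6 and 9) or at 30.9 and below (replicates 3, 5, 7 and 8), a wider range than in WB at both ends. Its IP mean of 6.38 was close to the brightest trp control in IP (6.31). Replicates 3, 5, 7 and 8, at 4.80 to 5.55 (log2), were below the means of all the trp controls in IP. The difference was -0.23 (SE 0.44, 95% confidence interval -1.14 to 0.68, limma adjusted p = 0.698), and it ran from -0.44 without IP replicate 6 to -0.04 without IP replicate 3. It was 0.24 after quantile normalization, 0.19 after median centring and -0.99 after control scaling, where it passed as lower (adjusted p = 0.0484). Ache, the esterase carried by cholinergic and many other neurons, had intensities of 11.0, 165.3 and 466.7 (lowest, median, highest) in IP and 193.5, 295.9 and 372.3 in WB (1422635_at). There were 6 IP arrays below every WB array and IP replicate 5 was above all of them. The difference was -0.93 (SE 0.36, 95% confidence interval -1.67 to -0.18, limma adjusted p = 0.0394), a 1.90-fold fall. The call was lost with a pseudocount of 1 (-1.09, adjusted p = 0.0528), quantile normalization (-0.54) and median centring (-0.50), and when IP replicate 3, 7, 8 or 9 or WB replicate 1, 2, 3, 4, 8 or 9 was left out (adjusted p from 0.0528 to 0.0642). Without IP replicate 8, which had the intensity of 11.0, the difference was -0.60.

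Hdc, the histamine-forming enzyme of the tuberomammillary nucleus, did not pass on either of its 2 probe sets, both of a class with sequence shared between transcripts. Probe set 1454713_s_at had intensities of 9.6, 75.5 and 823.4 (lowest, median, highest) in IP and 27.7, 47.8 and 200.9 in WB. Probe set 1451796_s_at had 23.2, 31.4 and 406.1 in IP and 28.8, 44.8 and 111.3 in WB. IP replicate 6 was the highest array on both (823.4 and 406.1), whereas IP replicate 9 was at 10.9 on the first and 320.5 on the second, and IP replicate 3 at 261.6 and 23.2. The 2 probe sets followed each other weakly over the arrays of a group (Pearson r = 0.21 over 9 IP arrays and 0.08 over 9 WB arrays, given as a description). The differences were 0.11 (SE 0.55, 95% confidence interval -1.03 to 1.24, limma adjusted p = 0.896) and 0.38 (SE 0.46, -0.56 to 1.32, limma adjusted p = 0.526). Without IP replicate 6 the first was -0.30. With group means of 6.08 to 6.46, both probe sets were at or just above the trp controls of their group. None of 7 mast cell markers passed the test in limma (0 higher and 0 lower, with 1 higher at an unadjusted p below 0.05), and their summed intensity was 993 to 1627 in IP and 651 to 1160 in WB. After quantile normalization, and likewise after median centring, 4 of the 7 were higher, and as means over probe sets 1 was lower. Over all genes 32.8% and 39% were higher under these scalings in turn, and 29% were lower as means over probe sets. The part of mast cells in the Hdc values was not tested.

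The other genes of the pathway were read on the brightest probe set of each, in lists chosen with earlier results of these data known. The median difference over all genes read this way was 0.00 with the deposited scaling, 0.29 after quantile normalization, 0.43 after median centring and -0.83 after control scaling. The shares of all genes called higher and lower were 32.8% and 16.2%, 39% and 11.4%, and 5.32% and 55.7% under these 3 alternatives in turn. As the mean over all probe sets of a gene, with the deposited scaling, 12.5% of genes were higher and 29% lower. The counts of the lists as such means were added after the data were seen. Of 8 transporters measured, 1 was higher and 2 lower (median -0.26). The split was 2 higher and 1 lower after quantile normalization or median centring, and 0 and 5 after control scaling. As means over probe sets 2 were higher and 2 lower. Slc18a3, the vesicular acetylcholine transporter, whose gene lies inside that of Chat, had intensities between 6.5 and 34.5 in IP and between 25.4 and 131.7 in WB. It fell by 1.25 (SE 0.30, limma adjusted p = 0.00128) and stayed lower past the threshold under all 4 scalings, though its IP mean of 5.26 was below the trp controls. Whether its probes and those of Chat can share RNA was not tested. Slc18a2, the vesicular monoamine transporter of all the aminergic neurons, fell by 0.52 (SE 0.20, limma adjusted p = 0.0421). That call was lost after quantile normalization (-0.23) or median centring (-0.09), without the 4 IP arrays of high hybridization control signal (-0.44) and in 9 of 18 fits that left out 1 array. Slc29a4, a low-affinity plasma membrane monoamine transporter, rose by 1.06 (SE 0.31, limma adjusted p = 0.00682), but not with control scaling (0.13). Only 1 of its 2 probe sets passed, and that one is of the class that can match several genes. So are the brightest probe sets of Qdpr, Acly, Prkaca, Plagl1, Cx3cl1, Akap3 and Capn3, named below. The uptake transporters of dopamine (Slc6a3, 0.06), noradrenaline (Slc6a2, -0.16), serotonin (Slc6a4, -0.35) and choline (Slc5a7, -0.80) did not pass, the last with a limma adjusted p of 0.0835.

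Tetrahydrobiopterin is the cofactor that Th and Tph2 both need. Of 7 genes of its synthesis and recycling, 1 was higher and 2 lower (median -0.03), or 0 and 2 as means over probe sets. Qdpr, which regenerates the cofactor, rose by 1.35 (SE 0.18, limma adjusted p = 1.13e-06) on its brighter probe set while its other one fell, and the mean over both was -0.005. Pcbd1 and Pcbd2, dehydratases of the same recycling pathway, fell by 1.29 (SE 0.33, limma adjusted p = 0.00263) and by 0.75 (SE 0.16, limma adjusted p = 0.000544), and the latter did not pass with median centring (-0.32). Gch1, the first and limiting enzyme of cofactor synthesis, had a difference of 0.17 (limma adjusted p = 0.631), and passed as higher after quantile normalization (0.74, adjusted p = 0.0123) and after median centring (0.59, adjusted p = 0.0498). The sign turned with control scaling (-0.62, adjusted p = 0.0812) and as the mean over its probe sets (-0.30, adjusted p = 0.214), and neither passed. Of 9 other synthesis and breakdown enzymes measured, 0 were higher and 2 lower in limma, the same counts as at an unadjusted p below 0.05 (median -0.30), and 0 and 8 with control scaling. Aldh2, the mitochondrial aldehyde dehydrogenase that clears the aldehydes formed by the oxidases, fell by 1.26 (SE 0.21, limma adjusted p = 1.81e-05), with 3 of its 5 probe sets lower and 1 higher. Aoc3, a copper amine oxidase of vessels, fell by 0.75 (limma adjusted p = 0.0201), which was lost with quantile normalization (-0.34) and median centring (-0.32) and without the 4 IP arrays of high hybridization control signal (-0.55).

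Among 7 genes that anchor the esterase or supply choline and acetyl groups, 2 were higher and 3 lower (median -0.43). Acly, which makes cytosolic acetyl-CoA, rose by 2.13 (SE 0.11, limma adjusted p = 1.69e-13) on the brightest of 6 probe sets, of which 2 were higher and 1 lower. As the mean over all 6 it rose by only 0.42 (limma adjusted p = 0.0297). Colq, the collagen tail of the esterase, rose by 1.55 (SE 0.40, limma adjusted p = 0.00276), a call lost with control scaling (0.76), and its WB mean of 5.93 was close to the trp controls. Chkb, a choline kinase, fell by 1.68 (SE 0.28, limma adjusted p = 2.19e-05) and Pcyt1a, of phosphatidylcholine synthesis, by 1.33 (SE 0.31, limma adjusted p = 0.000984), and both were lower under all 4 scalings. Of 9 regulators of the hydroxylases (kinases, a phosphatase and 14-3-3 proteins), 8 were higher and 0 lower in limma, as at an unadjusted p below 0.05 (median 0.76). The counts were again 8 and 0 after median centring (median 1.19), 3 and 3 after quantile normalization (median 0.03) and 3 and 2 after control scaling (median -0.20). As means over probe sets 6 were higher and 3 lower. The 3 were Camk2a, a calcium-dependent kinase with 5 of its 6 probe sets lower (-1.55, limma adjusted p = 7.35e-07), Prkacb, another catalytic subunit of protein kinase A (-1.60, limma adjusted p = 5.11e-08), and Ywhag, a 14-3-3 protein (-0.39, limma adjusted p = 0.0238). They are named because of these values. Prkaca, a catalytic subunit of protein kinase A, rose by 2.02 (SE 0.14, limma adjusted p = 1.55e-11) and Ywhab, a 14-3-3 protein, by 1.90 (SE 0.17, limma adjusted p = 1.37e-09), each with 1 other probe set of the gene that fell. As means over probe sets these rises were 0.601 (limma adjusted p = 0.00208) and 0.595 (limma adjusted p = 2.74e-05). Of 14 transcription factors of monoamine and cholinergic neurons measured, 3 were higher and 0 lower in limma, with 4 and 1 at an unadjusted p below 0.05 (median 0.27). The counts were 6 and 0 after quantile normalization (median 0.63), 8 and 0 after median centring (median 0.69) and 1 and 4 after control scaling (median -0.35). As means over probe sets 1 was higher and 0 lower. Nr4a2, the nuclear receptor of dopamine neurons that is also expressed in cortex, rose by 2.34 (SE 0.15, limma adjusted p = 7.38e-12) on the brightest of 6 probe sets, 2 of them higher and 1 lower, and its mean over all 6 did not pass (0.24, limma adjusted p = 0.189). Isl1, of cholinergic and hypothalamic neurons, rose by 1.14 (SE 0.21, limma adjusted p = 7.28e-05), but not with control scaling (0.21) or as the mean over its probe sets (0.40). Pitx3, a factor more restricted to midbrain dopamine neurons, had a difference of 0.26 (limma adjusted p = 0.383) and was below the trp controls in both groups.

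**Figure D4:**
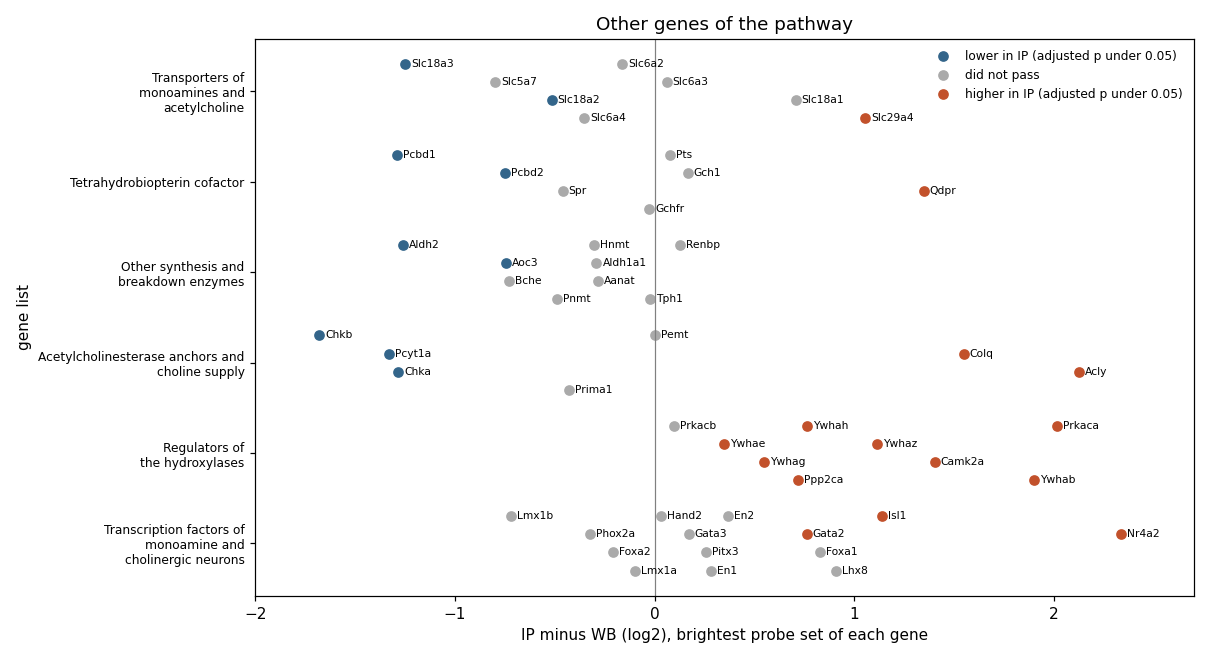
Difference between IP and WB (log2, deposited scaling) of each measured gene of 6 pathway lists, on its brightest probe set, coloured by the call at an adjusted p below 0.05 in limma. With this scaling 8 of 9 regulators of the hydroxylases are higher, against 3 of 9 after quantile normalization and 6 of 9 as means over probe sets, and the other lists hold genes on both sides.

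Markers of the cells in which these enzymes are known were measured in the same samples. Over all genes, read on the brightest probe set, 21.7% were higher and 21.7% lower. These shares were 32.8% and 16.2% after quantile normalization, and 12.5% and 29% as means over probe sets. Hcrt, which defines the orexin neurons, had intensities of 73.8 to 490.6 in IP and 156.4 to 388.1 in WB and did not pass (0.21, limma adjusted p = 0.568). Of 8 measured markers of dopamine, noradrenaline and serotonin neurons, 1 was higher and 1 lower, and their summed intensity was 5911 to 12151 in IP and 2513 to 3211 in WB. Nr4a2 alone had 4509.0 to 11139.5 in IP and 1080.6 to 1566.9 in WB. Of 6 measured markers of cholinergic neurons, 1 was higher and 1 lower, with sums of 1058 to 1691 in IP and 686 to 1215 in WB. Isl1 alone had 424.8 to 1137.5 in IP and 202.9 to 416.8 in WB. Of 10 astrocyte markers, a cell type in which Maob is known to be abundant, 4 were higher and 4 lower, with 3 and 6 after quantile normalization and 1 and 8 as means over probe sets. Their summed intensity was 62974 to 125563 in IP and 43771 to 59180 in WB. The brightest were Gja1 (19695.4 to 44871.3 in IP and 10372.5 to 13839.5 in WB) and Glul (19102.3 to 54000 and 11401 to 16462.6). The sum therefore follows these genes more than the other markers. Gfap was higher on the brightest of its 3 probe sets (6.52-fold, limma adjusted p = 1.48e-11), with 2 higher and 1 lower, and did not pass as their mean (0.38, limma adjusted p = 0.0959). Aldh1l1 was lower (-2.46, limma adjusted p = 6.94e-07). Of 9 measured endothelial and pericyte markers, 1 was higher and 6 lower (sums 4818 to 7715 in IP and 7298 to 8727 in WB), and of 5 red blood cell markers 0 were higher and 3 lower in limma, as at an unadjusted p below 0.05 (450 to 1459 in IP and 5180 to 16314 in WB). Of 7 oligodendrocyte markers 4 were higher and 2 lower, or 2 and 3 after quantile normalization and 2 and 4 as means over probe sets (57018 to 110745 in IP and 37652 to 52320 in WB), and of 7 microglia markers 2 and 4 (8619 to 14865 in IP and 4921 to 7037 in WB). Mbp alone had 25667 to 80467.1 in IP and 15257.6 to 24788.6 in WB of the oligodendrocyte sums. The brightest microglia markers were Csf1r (3483.9 to 7722.4 in IP and 1046.3 to 2525.8 in WB) and C1qb (2406.3 to 8115.9 and 1651.7 to 2304.7). Of 7 orexin neuron markers 2 were higher and 1 lower (33111 to 54095 in IP and 11871 to 16355 in WB), and Plagl1 alone had 29781.2 to 51383.0 and 9502.6 to 13497.3 of these sums. As means over probe sets, 0 were higher and 1 lower of the dopamine, noradrenaline and serotonin neuron markers, and likewise of the cholinergic ones. Such counts were 1 and 7 for endothelial and pericyte markers and 0 and 3 for red blood cell markers. They were 1 and 4 for microglia markers and 2 and 2 for orexin neuron markers. The part of these cell types in the values of the enzymes was not tested.

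After the mean of each group was taken away, the 2 genes most like each bright member were found by Pearson correlation over the 18 arrays, among 11186 other genes, as a description. The closest were Cx3cl1, a chemokine (r = 0.93), and Dnajc22 (r = 0.89) for Dbh, and Srgap3 (r = 0.93) and Tnfrsf21 (r = 0.91) for Ache. Apln, a peptide hormone precursor (r = 0.85), and Spa17 (r = 0.82) were closest to Tph2, Galntl6 (r = 0.84) and Spa17 (r = 0.83) to Maoa, Gm3764 (r = 0.82) and Mageb16 (r = 0.81) to Ddc, and Akap3 (r = 0.82) and Capn3 (r = 0.81) to Maob. No member was among these. Between the members themselves r was highest for Tph2 and Maoa (0.64) and lay between -0.23 and 0.43 for the other 14 of 15 pairs. Maoa and Maob had an r of 0.00. All of these points share the brightness and scaling of their array.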

How the data were processed

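RNA of 9 IP and 9 WB samples (groups from the labels) was amplified from 5 ng with the NuGEN WT-Ovation Pico system, per the labels' protocols. The submitters' processing notes name MAS5, without a version, as the source of the deposited probe set intensities (linear scale). Its background and scaling settings are not given in the sources used here. Each array's mean without the lowest and highest 2% was 500. The 64 control probe sets were left out of the test, 16 was added to the deposited intensities, log2 taken, and all 45037 other probe sets fitted with limma 3.58.1 in R 4.3.3 (empirical Bayes with an intensity trend, Benjamini-Hochberg adjustment, threshold 0.05, no filter). Of these, 34945 had 1 gene symbol, 932 several and 9160 none listed. Where 1 value a gene is given, it is that of the brightest probe set (highest mean over the 18 arrays). This mean includes the IP arrays, so a probe set that is high in IP is more readily the one chosen. Over all genes 21.7% were higher and 21.7% lower by this choice, against 12.5% and 29% as means over probe sets. Rises given on the brightest probe set, and counts of them, depend on this choice. The procedure was checked on simulated data, drawn independently for each array with the spread of the WB arrays. That check did not cover the wider spread of the IP arrays. Ratios within arrays were compared by exact permutation.

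The members and lists were chosen with earlier results of these data known. Named were all members with each probe set, up to 2 rises and 2 falls of each pathway list, genes that define a cell type, and the 2 genes most like each member with a group mean of at least 8. Gch1, Slc6a3, Slc6a2, Slc6a4, Slc5a7 and Pitx3 were added after their values were seen. Same-numbered IP and WB arrays did not deviate together (correlations from -0.05 to 0.08). Alternatives were other pseudocounts, scalings and filters, no trend, the replicate number as a block, the mean over probe sets and leaving out arrays. The number of arrays limits the precision. Promoters are from RefSeq.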

Additional observations from a re-analysis of the deposited data

Results flagged for a closer look

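In 5 of the 28 groups of 9 values examined (14 probe sets in IP and in WB), 1 array lay far from the rest by Dixon's test of its gap to the nearest array over the group's range, at the 95% level. Chance flags about 1 in 20 groups. On the log2 scale, Th on WB replicate 4 was at 6.89 (next 7.61), and this array was the one through which the Th groups overlapped. Ache on IP replicate 8 was at 4.75 (next 7.11). Ddc probe set 1430591_at on IP replicate 2 was at 7.17 (next 5.63). Dbh probe set 1450670_at on WB replicate 2 was at 5.47 (next 6.59). Maob on WB replicate 5 was at 7.25 (next 7.95), on the side away from IP.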

How the results depend on the processing

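Th, Maob and Dbh 1459848_x_at kept direction and call in every alternative run that kept the probe set. With quantile normalization 3 member probe sets were higher and 2 lower (10869 of all probe sets higher), and after median centring also 3 and 2 (12802 higher and 8322 lower over all). With control scaling 10 were lower (1420 higher and 28637 lower over all). With only probe sets of a mean of at least 8 tested, 3 of 7 were lower, against 43.4% of all probe sets tested. Leaving out 1 array gave 3 to 6 lower, with 3 without IP replicate 3 and without WB replicates 1, 4 or 9. Of all probe sets, 29% to 31.2% were lower in these fits. The cause of the changed member counts was not tested, apart from the filter leaving 7 of the 14 to test. Signs turned with control scaling for Dbh 1450670_at (-0.51), Tph2 (-0.86), Maoa 1428667_at (-0.79), Hdc 1454713_s_at (-0.57) and Hdc 1451796_s_at (-0.34). Chat turned to 0.24 after quantile normalization and 0.19 after median centring, and Maoa to -0.24 as the mean over its probe sets. Hdc 1454713_s_at turned to -0.051 with a pseudocount of 1, and without IP replicates 2, 5, 6 and 8 together to -0.10, as did 1451796_s_at (-0.10) and the Hdc ratio (0.006). Leaving out 1 array gave ranges of -0.051 to 0.17 for Tph2 and -0.30 to 0.33 for Hdc 1454713_s_at, and -0.631 to 0.18 for the Hdc ratio (the latter without IP replicate 9). With the replicate number as a block 1 member probe set was higher and 6 lower (6313 and 13707 over all), and only 4 of 18 arrays correlated best with their own number. The alternatives with 4 IP arrays left out and the ratios were chosen after the data were seen.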

Other observations

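WB replicates 2, 5 and 8, to which the labels give no common property, stood apart from the other WB arrays over all probe sets. With the group mean taken away, their values correlated at 0.06 to 0.11 with each other. With the other 6 WB arrays these correlations were -0.34 to -0.07. The 3 arrays also stood together on 2 member probe sets. Their values of the brightest Dbh probe set were the 3 lowest of the WB group, and those of Hdc 1454713_s_at were the 3 highest, at 162.1, 200.9 and 135.4, while the other 6 WB arrays were between 27.7 and 49.1. The other Hdc probe set did not follow, at 111.3, 28.8 and 49.5 on these arrays.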
